A study of Mus musculus with 2 samples.

Results

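Genes that receive, make, break down or carry sphingosine 1-phosphate (S1P) were followed in ALL65, a primary T-ALL (acute lymphoblastic leukaemia of T cells) from the mouse, with and without restored Ikaros. The group was defined by gene symbol and function and holds 9 of the 27179 genes in the count table: the receptor genes S1pr1, S1pr2 and S1pr4, the kinase genes Sphk1 and Sphk2, the lyase gene Sgpl1, the phosphatase gene Sgpp1 and the transporter-family genes Spns1 and Spns2. Of these, 7 reached 5 CPM (counts per 1000000 counts of the scaled library) in at least 1 library. Sphk1 and Spns2 stayed under that minimum, with 0 to 2 counts per library.

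The leukaemia carries Vav-tTA and TRE-GFP-shIkaros. In this pair of transgenes the Vav promoter, active in blood cells, drives the tetracycline-controlled activator, which in turn drives a hairpin against Ikaros joined to green fluorescent protein (GFP). Both groups carry the transgenes and are the same leukaemia grown in recipient mice. Cells were sorted from the spleen, as GFPhigh cells from untreated mice and as GFPmid cells from mice given doxycycline (Dox) for 3 days, which turns the hairpin off. Treatment and sort gate therefore cannot be told apart in what follows. The sources used here do not give the recipients' age or strain. The design text names 3 mice per group, but each group is 1 column of counts, so there is no replicate error and no test could be made. All intervals are exact 95% counting intervals, which hold no spread between mice, and the limit that a count of 0 allows is taken as 3 counts.

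Library totals were 7477988 counts (untreated) and 14457475 counts (Dox). Ikzf1, which encodes Ikaros and is the target of the hairpin, stood at 262 CPM without Dox and 1455 CPM with it. All 8 T lineage markers checked, among them Cd3e, Lck and Thy1, lay between 244 and 1338 CPM, and their sums were 4527 and 4653 CPM. Single markers moved in both directions within these sums. Cd247 had a log2 ratio of Dox over untreated of 0.78 (0.70 to 0.85) and Cd28 one of 0.69 (0.62 to 0.76). Cd3g stood at -0.28 (-0.35 to -0.21) and Cd3d at -0.25 (-0.31 to -0.18). S1pr1 and S1pr5 are also known from other spleen cells, so markers of those cells were read beside them. Of 8 endothelial markers, Cdh5, Kdr and Cldn5 had 0 counts in both libraries, and 1 passed 1 CPM (Egfl7, at 21.3 and 18.3 CPM), with sums of 21.8 CPM untreated and 18.8 CPM with Dox. Of 7 B cell markers and 7 NK cell markers, 0 passed 1 CPM. The B cell sums were 0.921 and 0.773 CPM, with Ms4a1, Ebf1 and Pax5 at 0 counts in both libraries, and the NK cell sums were 0.395 and 0.351 CPM, with Ncr1, Klrk1, Klrd1, Klra8 and Klre1 at 0. The sums of the myeloid markers were 16.6 and 17.4 CPM over 8 genes, with Mpo and S100a8 at 0, but the most abundant of them moved apart: Lyz2 went from 7.24 to 1.69 CPM, a log2 ratio of -1.99 (-2.86 to -1.38), and Itgam from 8.42 to 14.7 CPM, one of 0.79 (0.39 to 1.23). The erythroid sums were 4.61 and 6.89 CPM over 6 genes. The 5 megakaryocyte and platelet markers summed to 1.32 and 1.69 CPM, with Pf4 and Gp9 at 0. The part of such cells in the results below was not tested.

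S1P is a lipid that cells make by phosphorylating sphingosine, the backbone released when ceramide is broken down. It is abundant in blood and lymph and scarce inside lymphoid tissue, and lymphocytes that carry the receptor S1PR1 follow this gradient out of thymus, lymph node and spleen into the circulation. The receptors are G protein-coupled: S1PR1 signals through Gi and favours movement towards S1P, whereas S1PR2 couples strongly to G12 and G13 and restrains movement. S1PR4 is found mainly on blood and lymphoid cells. Immature thymocytes carry little S1pr1, and its transcription rises as they mature.

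The receptor genes were the members that differed, and they differed in both directions. With Dox, S1pr1 was 4.57-fold and S1pr4 3.02-fold higher, whereas S1pr2 was 2.16-fold lower. The kinase, lyase, phosphatase and transporter genes that could be measured lay within 1.5-fold. A difference was called when the libraries were at least 2-fold apart with at least 5 CPM in the higher one. By this rule 2 of the 7 members above the minimum were higher with Dox and 1 was lower, while over all 10113 genes above the minimum 2.21% were higher and 2.24% lower. The members were chosen with earlier results of these data known, so these shares are a description and not a test. With the bound of the counting interval nearest to 0 past 2-fold, S1pr1 and S1pr4 were left, 2 members higher and 0 lower, beside 1.14% and 1.39% of all genes. The median log2 ratio of the 7 members was 0.07, beside 0.01 for all 10113 genes.

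**Figure D1:**
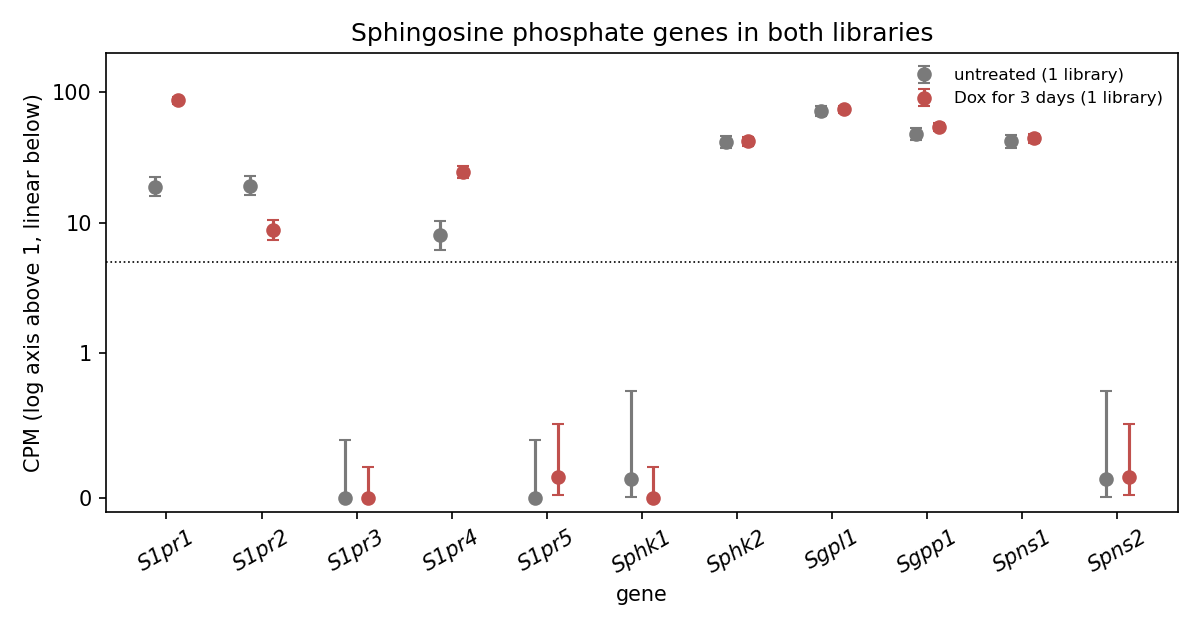
Level of each S1P gene in CPM (vertical axis, logarithmic above 1 and linear below) in the untreated and the Dox library, with exact 95% counting intervals (at 0 counts the bar reaches the limit of 3 counts); the dotted line is the 5 CPM minimum, and S1pr3 and S1pr5 are shown beside the 9 genes to complete the receptor family. S1pr1 and S1pr4 stand higher and S1pr2 lower with Dox, while Sphk2, Sgpl1, Sgpp1 and Spns1 have overlapping intervals.

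S1pr1 (Entrez Gene 13609, chromosome 3 from 115710433 to 115715055 in mm10) had 143 counts without Dox and 1232 with it. These are 18.8 CPM (15.9 to 22.2) and 86.6 CPM (81.8 to 91.6), and the 2 intervals lie far apart. The log2 ratio of Dox over untreated was 2.19 (1.95 to 2.46), which ranked 19 from the highest of 10113 genes.

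S1pr4 (Entrez Gene 13611, chromosome 10 from 81497745 to 81500137) had 61 and 350 counts. Its level was 8.03 CPM (6.14 to 10.3) in the untreated and 24.6 CPM (22.1 to 27.3) in the Dox library. The log2 ratio was 1.59 (1.22 to 2.03), at rank 61 from the highest. Its interval overlaps that of S1pr1 from 1.95 to 2.03, and whether the ratios of these receptors differ was not tested.

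S1pr2 (Entrez Gene 14739, chromosome 9 from 20965952 to 20976793) went the other way. It had 146 counts untreated and 125 with Dox, although the Dox library was the deeper one. The levels were 19.2 CPM (16.2 to 22.6) and 8.79 CPM (7.31 to 10.5), with a log2 ratio of -1.11 (-1.48 to -0.77) at rank 201 from the lowest. The bound nearest to 0 stands for a 1.71-fold lower level, so counting error alone leaves room for a difference under 2-fold.

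The remaining receptor genes were at the detection limit. S1pr3, known from vessels and heart, had 0 counts in both libraries, which allows up to 0.395 CPM untreated and 0.211 CPM with Dox. S1pr5, known from NK cells and patrolling monocytes, had 0 and 2 counts.

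**Figure D2:**
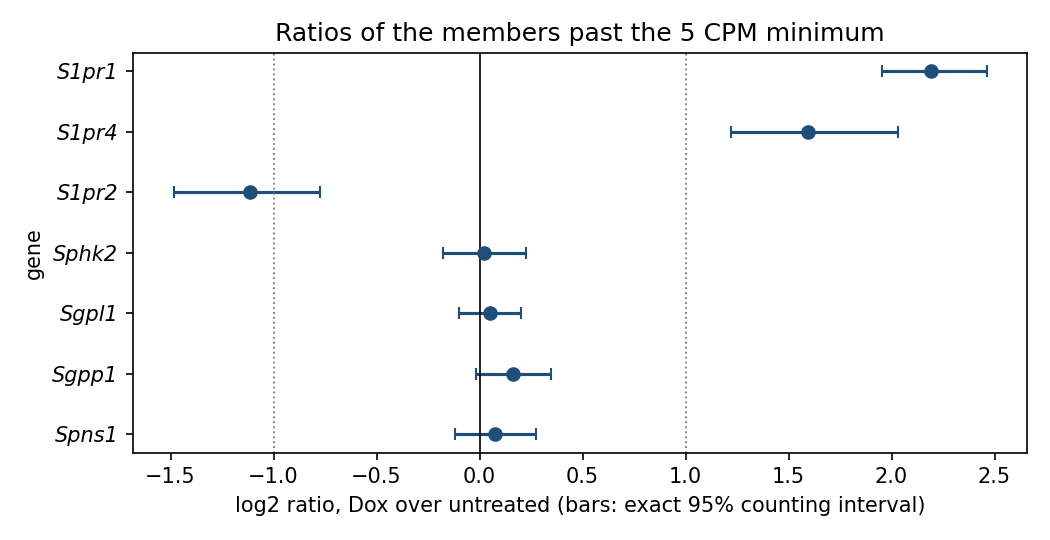
Log2 ratio of Dox over untreated (horizontal axis) for the 7 genes above the 5 CPM minimum; bars are exact 95% counting intervals and dotted lines mark 2-fold. The intervals of S1pr1 and S1pr4 lie wholly above 2-fold, that of S1pr2 crosses the 2-fold line on the lower side, and those of Sphk2, Sgpl1, Sgpp1 and Spns1 include 0.

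Ratios between genes within 1 library do not depend on how the libraries are scaled. Without Dox there were 0.979 S1pr1 counts (0.772 to 1.24) for each S1pr2 count. With Dox there were 9.86 (8.19 to 11.9). S1pr4 went from 0.418 counts (0.305 to 0.567) to 2.80 counts (2.28 to 3.46) for each S1pr2 count. Both receptors thus gained on S1pr2 within the library itself. The ratio of S1pr1 to S1pr4 moved less, from 2.34 (1.73 to 3.22) to 3.52 (3.12 to 3.98), and these intervals overlap. Overlap of separate intervals does not decide whether this ratio changed, which was not tested.

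To compare levels between genes, CPM were divided by the gene length in the authors' table, in kilobases (kb). On this scale the untreated cells had 6.21 CPM per kb of S1pr1, 6.82 of S1pr2 and 3.35 of S1pr4. S1pr1 and S1pr2 had overlapping intervals there (5.24 to 7.32 and 5.76 to 8.03), and S1pr4 (2.57 to 4.31) lay below both. With Dox the order was S1pr1 at 28.6, S1pr4 at 10.3 and S1pr2 at 3.12 CPM per kb, with no overlap between neighbours. The summed receptor level was 2.57-fold higher with Dox, at 16.4 and 42.1 CPM per kb. S1pr1 made up 37.9% of that sum without Dox and 68.0% with it. The share of S1pr2 was 41.6% and then 7.42%, and that of S1pr4 20.5% and then 24.4%. These shares rest on the length assigned to S1pr2, which is 2815 bases in the authors' table and 7971 bases in the union of its GENCODE exons. With the latter, S1pr2 held 20.2% of the untreated sum and S1pr1 51.7%. The share of S1pr4 was then 28.1% without and 25.8% with Dox, so the direction of its share turned. The untreated order turned as well, with S1pr4 at 3.36 CPM per kb (2.57 to 4.32) and S1pr2 at 2.41 (2.04 to 2.83), whose intervals overlap. Taken directly, the untreated ratio of S1pr4 to S1pr2 per GENCODE length was 1.40 (1.02 to 1.89), an interval wholly above equality. The order with Dox was S1pr1, S1pr4, S1pr2 by either length.

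**Figure D3:**
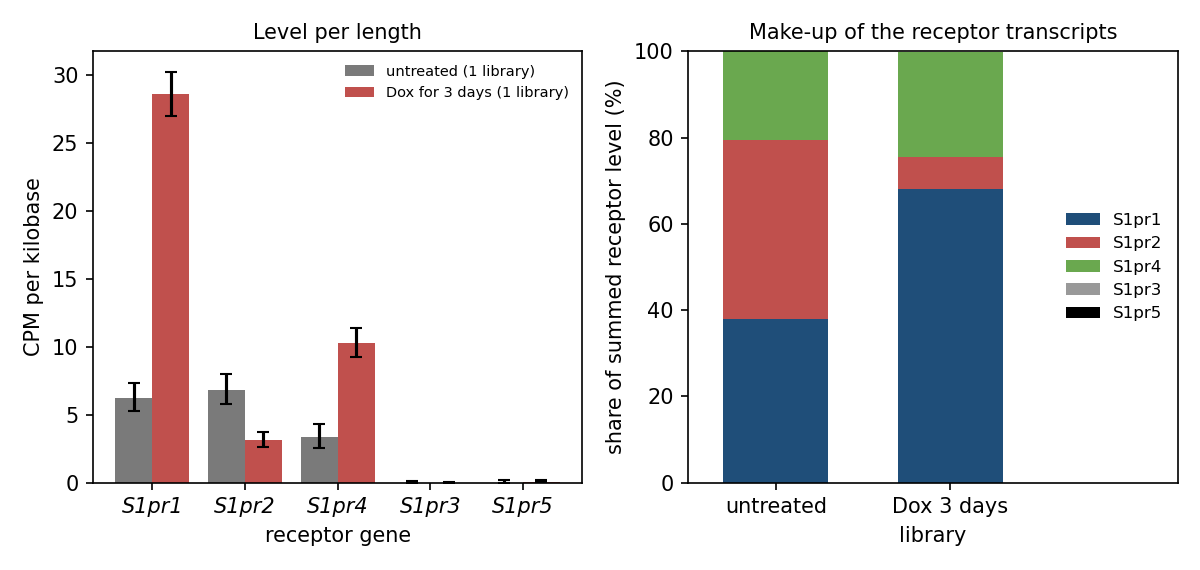
Left, level of the receptor genes in CPM per kb of the authors' gene length, with exact 95% counting intervals. Right, the share of each receptor in the summed receptor level of its own library, by the authors' lengths. S1pr1 takes 37.9% of the untreated and 68.0% of the Dox sum, and the share of S1pr2 is 41.6% and 7.42%. By GENCODE exon lengths the untreated shares are 51.7% for S1pr1 and 20.2% for S1pr2.

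Promoter sequences are shown for the called receptors for which RefSeq (GRCm38.p6, the assembly behind mm10) gave an entry, since these genes moved in opposite directions. An entry was matched for 8 of the 9 members, and S1pr1 is the member without one. Each window runs from 250 bases before to 50 bases after the annotated start and is printed 5′ to 3′ on the strand of the gene. Capitals mark matches on either strand to GGGAA, the core of Ikaros sites, and to CACCC, a core bound by Krüppel-like factors.
S1pr4 (chr10:81500088-81500387, minus strand): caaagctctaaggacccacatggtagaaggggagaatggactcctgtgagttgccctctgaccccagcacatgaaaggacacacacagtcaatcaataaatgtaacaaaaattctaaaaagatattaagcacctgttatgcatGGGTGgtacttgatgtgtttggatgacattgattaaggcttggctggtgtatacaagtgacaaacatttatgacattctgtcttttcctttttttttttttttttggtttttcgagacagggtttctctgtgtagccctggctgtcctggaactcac
S1pr2 (chr9:20976744-20977043, minus strand): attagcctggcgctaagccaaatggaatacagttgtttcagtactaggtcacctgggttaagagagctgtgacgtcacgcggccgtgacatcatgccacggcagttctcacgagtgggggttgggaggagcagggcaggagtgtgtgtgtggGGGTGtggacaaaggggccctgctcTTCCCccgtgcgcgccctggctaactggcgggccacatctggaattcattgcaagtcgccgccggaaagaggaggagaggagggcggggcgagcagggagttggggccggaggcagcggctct

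The S1pr4 window held 0 matches to GGGAA and 1 to CACCC, and the S1pr2 window 1 match to each. The windows also differed in base composition, with 41% G and C in that of S1pr4 and 62% in that of S1pr2. Over the members, some with several starts, 7 of 13 windows held GGGAA and 8 of 13 held CACCC. Among all 32841 windows of 300 bases the shares were 62.7% and 57.5%, so matches to either motif are common in windows of this length. The capitals are letter matches only, and binding was not measured.

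Sphingosine kinases make S1P inside the cell. Sphk2 (Entrez Gene 56632, chromosome 7 from 45709463 to 45718002), whose product is found in nucleus and mitochondria as well as cytosol, carried nearly all kinase counts. It had 315 and 599 counts, that is 41.4 CPM (37.0 to 46.3) untreated and 42.1 CPM (38.8 to 45.6) with Dox, and the intervals overlap. The log2 ratio was 0.02 (-0.18 to 0.22). Its span overlaps that of Rpl18, a ribosomal protein gene on the opposite strand with 711 and 1440 counts, and the sources used here do not say whether reads were assigned by strand. Sphk1 (Entrez Gene 20698, chromosome 11 from 116530836 to 116536675), the cytosolic kinase that growth factor signals act on, had 1 count untreated and 0 with Dox.

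S1P is removed by cleavage or by loss of its phosphate, and a gene of each route was measured. Sgpl1 (Entrez Gene 20397, chromosome 10 from 61098642 to 61147684) encodes the lyase that cleaves S1P irreversibly. It had 545 and 1056 counts, 71.7 CPM (65.8 to 78.0) and 74.2 CPM (69.8 to 78.8). Its log2 ratio was 0.05 (-0.10 to 0.20). Sgpp1 (Entrez Gene 81535, chromosome 12 from 75714248 to 75735729) encodes the phosphatase that returns S1P to sphingosine. It had 365 and 765 counts, 48.0 CPM (43.2 to 53.2) and 53.8 CPM (50.0 to 57.7). Its log2 ratio was 0.16 (-0.02 to 0.35). For neither gene did the libraries differ beyond counting error.

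Spns1 (Entrez Gene 73658, chromosome 7 from 126370060 to 126377934) belongs to the spinster family but is known as a lysosomal carrier of lysophospholipids. It had 320 and 631 counts, 42.1 CPM (37.6 to 47.0) and 44.4 CPM (41.0 to 48.0), and a log2 ratio of 0.07 (-0.12 to 0.27). Spns2 (Entrez Gene 216892, chromosome 11 from 72451638 to 72489976), the carrier by which endothelial cells release S1P, had 1 and 2 counts. With so few counts in each library, no ratio is given for Spns2 or Sphk1.

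The 4 measured genes outside the receptors thus had log2 ratios from 0.02 to 0.16, and all 4 intervals included 0. A place within 1.5-fold was common, since 87.5% of the 10113 genes lay there. No interval among these 4 genes reached 1.5-fold, and the highest bound was 0.35 for Sgpp1. The ratios of kinase counts to lyase or phosphatase counts, read within each library, were also close between the libraries. They are ratios of transcripts, and neither S1P nor enzyme activity was measured. There were 0.578 Sphk2 counts (0.502 to 0.665) for each Sgpl1 count without Dox and 0.567 (0.512 to 0.628) with it. For each Sgpp1 count there were 0.863 (0.740 to 1.01) and 0.783 (0.702 to 0.873) Sphk2 counts, with overlapping intervals. S1pr1 counts for each Sgpl1 count went from 0.262 (0.217 to 0.316) to 1.17 (1.07 to 1.27), with no overlap. Such count ratios compare the libraries and not the levels of the genes, since they are not divided by length. Among the 9 genes, Sgpl1 had the highest untreated level by the authors' lengths, 17.4 CPM per kb (16.0 to 18.9), followed by Spns1 at 15.1 (13.5 to 16.9) and Sgpp1 at 14.4 (13.0 to 16.0), and the intervals of neighbours in this order overlap. Sphk2 stood below them at 9.96 CPM per kb (8.89 to 11.1). With Dox, S1pr1 at 28.6 CPM per kb (27.0 to 30.2) lay above Sgpl1 at 18.0 (16.9 to 19.1). Sgpp1 at 16.2 (15.1 to 17.4) and Spns1 at 15.9 (14.7 to 17.2) overlapped with each other and with Sgpl1. Taken directly, the ratio of Sgpl1 to Sgpp1 per length with Dox was 1.11 (1.01 to 1.22), an interval just above equality. S1pr4 at 10.3 (9.23 to 11.4) and Sphk2 at 10.1 (9.32 to 11.0) did not differ beyond their intervals. The place of Sphk2 depends on the lengths: with GENCODE exon lengths the untreated levels were 11.7 CPM per kb for Sgpl1, 11.4 for Spns1, 9.97 (8.90 to 11.1) for Sphk2 and 8.50 (7.65 to 9.42) for Sgpp1, so that Sphk2 was no longer the lowest of them. S1pr1 with Dox, at 28.4, was above all of them by those lengths too.

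Other genes that handle S1P had ratios within 1.5-fold where measured, as most genes did. Of the 9 measured genes (a mean over both libraries of 1 CPM or more) in a list of makers, breakers and carriers, 4 of which are members described above, 0 were at least 1.5-fold apart, beside 7.54% higher and 8% lower among all 11498 measured genes. The list median was 0.07, beside 0.01 for all measured genes. Plpp3, a lipid phosphatase gene, had a log2 ratio of 0.53 (0.14 to 0.95). Cib1, whose product helps bring SPHK1 to the membrane, had one of 0.42 (0.21 to 0.64). The upper bounds of both lie past 1.5-fold. Aldh3a2, which oxidises the aldehyde left by the lyase, stood at 0.35 (0.15 to 0.57), and the export pump gene Abcc1 at -0.32 (-0.51 to -0.13). Mfsd2b, the S1P carrier of red cells and platelets, had 4 and 20 counts.

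Genes upstream, in sphingolipid synthesis and ceramide turnover, lay within 1.5-fold apart from Smpd3 and, on few counts, Smpd1. Of 13 measured genes of backbone synthesis, 0 were at least 1.5-fold apart, with a median of 0.07. The largest ratio there was that of Cers6, a ceramide synthase, at 0.56 (0.37 to 0.77). Of 15 measured genes of ceramide turnover, 13 lay within 1.5-fold, and the median was 0.22. A ratio this small was common, since only 7.54% of all 11498 measured genes were higher and 8% lower by 1.5-fold or more. The counts within 1.5-fold therefore describe these lists and do not set them apart from other genes. Smpd3 encodes a neutral sphingomyelinase that releases ceramide at membranes. It had 150 counts untreated and 85 with Dox, 19.7 and 5.98 CPM, and was 3.23-fold lower with a log2 ratio of -1.69 (-2.13 to -1.33). Smpd1, the acid sphingomyelinase gene, had a ratio of 1.097 from only 6 and 27 counts, with an interval that includes 0 (-0.04 to 2.83). At least 2-fold higher were 2.91% and at least 2-fold lower 3.16% of all measured genes.

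**Figure D4:**
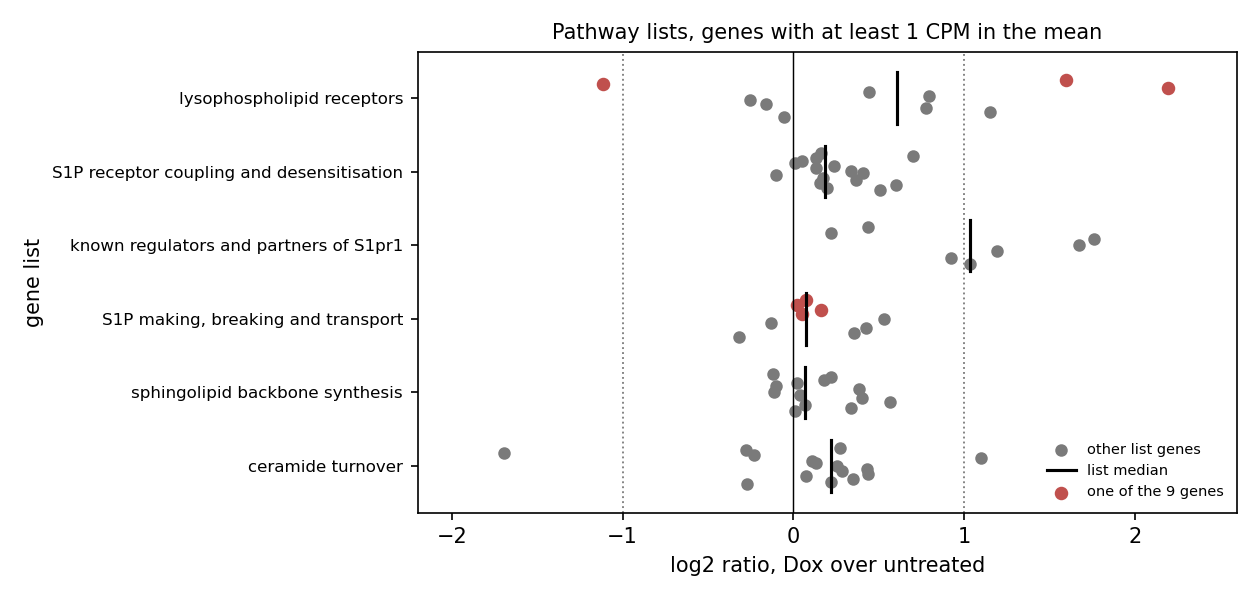
Log2 ratio of Dox over untreated (horizontal axis) for each measured gene (mean of 1 CPM or more), by pathway list; red points are genes of the 9, grey points the other genes of the list, black bars list medians and dotted lines 2-fold. The receptor list spreads from -1.11 to 2.19, while backbone synthesis genes stay between -0.12 and 0.56.

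Among receptors for related lipids, several but not all stood higher with Dox. Of 10 measured genes in the list of lysophospholipid receptors and their relatives, 3 of them S1P receptors, 5 stood at least 1.5-fold higher and 1 (S1pr2) was lower by that size, beside 7.54% and 8% of all measured genes. The S1P receptors reported above make up 3 of these 6, and the list median was 0.61. Gpr174, a receptor for lysophosphatidylserine on lymphocytes, had 32.1 CPM untreated and 71.5 CPM with Dox, a 2.22-fold higher level, and its log2 ratio was 1.15 (0.95 to 1.36). Lpar6, a receptor for lysophosphatidic acid, stood at 0.80 (0.62 to 0.99) and Gpr65, a proton sensor, at 0.78 (0.53 to 1.04). Lpar2 at -0.16 (-0.45 to 0.12) and Lpar5 at -0.25 (-0.55 to 0.05), other receptors for lysophosphatidic acid, had intervals that include 0. Lpar6, Gpr65, Lpar2 and Lpar5 were chosen after their values were seen.

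Signal transducers below the receptors mostly lay within 1.5-fold, as most genes did. Of 16 measured genes for G proteins, receptor kinases, arrestins and genes of cell movement, 2 were at least 1.5-fold higher and 0 lower, beside 7.54% and 8% of all measured genes, and the median was 0.18. With scaling by total counts 1 was higher. Counts of this size lie near those shares, so they describe the list and do not set it apart from other genes. The 2 genes were Rac2, a GTPase of blood cell migration, at 0.70 (0.64 to 0.75) and Arrb2, an arrestin that helps take receptors off the surface, at 0.60 (0.43 to 0.77). Arhgef1, whose product acts below G13, stood at 0.51 (0.45 to 0.56) and Gna13 itself at 0.40 (0.31 to 0.50). The Gi gene Gnai2 stood at 484 and 612 CPM, and Grk2, the kinase that desensitises S1PR1, stood at 384 and 454 CPM.

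Genes known to act on S1pr1 or to accompany it in mature T cells mostly stood higher beside it, in a list of 7 with a median of 1.04. Klf2, a transcription factor of mature T cells that binds the S1pr1 promoter, was 3.38-fold higher at 42.8 and 145 CPM, and Foxo1, which acts upstream of Klf2, 2.29-fold higher at 120 and 275 CPM. Itgb7, an integrin chain of gut homing, had a log2 ratio of 1.67 (1.49 to 1.87) and Ccr7, a chemokine receptor, one of 1.04 (0.87 to 1.21). Cd69, whose product pulls S1PR1 off the cell surface, had 47 and 169 counts, 6.18 and 11.9 CPM, and a ratio of 0.92 (0.47 to 1.44). Its interval lies above 0 and below that of S1pr1. In all, 5 of the 7 genes were at least 1.5-fold higher and 0 lower, beside 7.54% and 8% of all measured genes. The median of all measured genes was 0.01. The list was chosen with earlier results of these data known.

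The genes whose levels were nearest to those of S1pr1 in both libraries, by distance in the plane of their log2 CPM over 12283 named genes, were Ms4a4b, Gbp9 and Gramd3. Their distances were 0.39, 0.42 and 0.43 on the log2 scale. Ms4a4b, a membrane protein gene of T cells, stood at 24.6 and 84.7 CPM, Gbp9, a guanylate-binding protein gene, at 21.1 and 66.4 CPM and Gramd3 at 22.0 and 111 CPM. With 1 library per group, such likeness rests on 2 points per gene. In these sorted bulk samples, fewer cells with a transcript and less of it per cell cannot be told apart.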

How the data were processed

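The authors' deposited tables hold raw counts, whole numbers of reads per gene for 27179 genes by Entrez Gene number, with 1 column per group and a gene length. Per the submitters' processing notes, CASAVA 1.8.2, featureCounts and mm10 were used. The aligner, annotation, strand setting and the way 3 mice and 2 runs were combined are not stated there, nor in the labels. Between the series table and the file of each library, 0 values differed.

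Symbols came from RefSeq (25275 genes) and GENCODE M21 (18 more). TMM scaling (trimmed mean of M values) was done in R 4.3.3 with edgeR 4.0.16 and gave factors of 1.02 and 0.984. Log2 ratios carry a prior count of 2, which pulls low genes towards 0. Intervals on ratios are exact (Clopper-Pearson, 95%, without the prior count) and those on levels are exact Poisson intervals. They cover counting error only, and a count of 0 allows 3 counts. The calculation was tested on simulated data.

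Genes were named by a written rule: the 9 members, S1pr3, S1pr5, Ikzf1, Klf2, Foxo1, Cd69, of each list the up to 4 genes above the 5 CPM minimum with the largest size of ratio, and the 3 genes nearest to S1pr1. Further list and marker genes were chosen after their values were seen, and 1 list gene is not reported here. The members and lists were chosen with earlier results of these data known. Alternatives were scaling by total counts or by the size factors of DESeq2 1.42.0, a prior count of 0.5 or 5, other CPM minimums, a rule on the interval bound and, added after seeing the data, GENCODE lengths for levels and receptor shares, and plain counts for the shares. Other steps used scipy 1.17.1 in Python 3.11.15.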

Additional observations from a re-analysis of the deposited data

How the results depend on the processing

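Under DESeq2 size factors, total counts and prior counts of 0.5 and 5, the log2 ratios stayed within their counting intervals for all 7 measured members, from 2.15 to 2.20 for S1pr1, 1.55 to 1.61 for S1pr4 and -1.16 to -1.09 for S1pr2. Sphk2 lay between -0.02 and 0.02, so its sign depends on the scaling. The count of members higher with Dox was 2 under every alternative run. The count of members lower with Dox was 0 in place of 1 with a minimum of 20 CPM, which S1pr2 misses at 19.2 CPM, and 0 when the interval bound had to pass 2-fold, a rule that 1.39% of genes met in that direction and 1.14% in the other. The list medians, 36 values over all lists and alternatives, each moved by less than 0.5 times the median width of the counting intervals of the list's genes. Of 72 list counts at 1.5-fold, 5 moved by more than 1.5-fold, or to or from 0. With no minimum other than 1 count, the list of makers, breakers and carriers had 3 genes higher and 2 lower, in place of 0 and 0. Of the receptor shares, those of S1pr1, S1pr2 and S1pr4 without Dox were 51.7%, 20.2% and 28.1% with GENCODE lengths. With Dox, S1pr1 held 71.3%, S1pr2 2.76% and S1pr4 25.8% by those lengths, and S1pr1 72.1% and S1pr4 20.5% of plain counts. Shares from RefSeq transcript lengths were not run. No paired analysis was possible because each group has 1 library. The depth limits Sphk1, Spns2, S1pr3 and S1pr5 to a statement of counts.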
